A study of Homo sapiens with 12 samples.

Results

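The prostate cancer (PCa) line DU145 was compared with the benign prostate line BPH-1 across all genes, to ask which genes differ in expression between a PCa line and a benign one. The libraries were chosen by cell line alone, and 8 of the 12 libraries of the set belong to these lines, 4 to each. The other 4 libraries come from PC3, a second PCa line, and were used to say whether DU145 also differed from it. Both lines carry the label WT for genotype and prostate for tissue, no treatment is given, and both grew in DMEM with fetal bovine serum, penicillin and streptomycin. Each line stands for 1 cell line only, and nothing in the labels says that the 4 libraries of a line came from separate cultures. The p-values therefore measure only the spread between these libraries, which may be technical. Of 58302 genes in the table, 17070 passed the filter on low reads and were tested.

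BPH-1 was derived from the epithelium of a benign prostatic hyperplasia and was immortalised with the SV40 large T antigen, a viral protein that binds RB and other tumour suppressors. DU145 was derived from a brain metastasis of a prostate carcinoma, grows without androgen, and is known to lack functional RB. The prostate gland is lined by basal cells, which hold keratins such as KRT5 and KRT14 and the transcription factor TP63 and sit on a laminin-rich basement membrane, and by luminal cells, which hold KRT8 and KRT18 and, in the normal gland, secreted products that depend on androgen. Expression was measured by sequencing RNA, and values are given as FPKM, the reads of a gene per length of its exons and per total of reads. The values fit a length that counts overlapping exons of a gene's transcripts more than once. A gene with many annotated transcripts thus tends to a lower FPKM, and levels of different genes cannot be strictly compared. A log2 fold change is the difference of the mean log2(FPKM + 1) of the lines, with DU145 minus BPH-1, and understates the change of genes of low level. A fold is the ratio of the mean FPKM values. A gene was called where its limma p-value, adjusted by Benjamini-Hochberg over all genes tested, was under 0.05.

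The depth of the 8 libraries, the total of reads that FPKM divides by, was 13416343 to 16309559. It was recovered from the steps of the FPKM values, and the depth of the lines overlapped. Some DU145 libraries stood apart from the others in 2 ways that bear on the results. The first is gene GC content, the share of G and C bases in the exons of a gene. Expression relative to the mean of the 8 libraries changed with GC content by -0.39 to -0.31 on the log2 scale per 10% GC in the BPH-1 libraries. In DU145 the same slope was 0.55 in replicate 1, -0.0028 in replicate 2, 0.73 in replicate 3 and 0.11 in replicate 4. The slopes of the lines did not overlap (0.35 ± 0.35 against -0.35 ± 0.036, SD, n = 4 each, 2-sided exact permutation test p = 0.0286, the smallest that 4 against 4 libraries can give), and DU145 replicates 1 and 3 were the steepest. Values after a correction for each library's own trend on GC content are therefore given beside many of the results. Small slopes were left after it, 0.028 to 0.051 in the BPH-1 libraries and -0.054 to -0.021 in the DU145 libraries. That correction also takes away from any true difference between the lines that follows GC content.

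The second is a group of genes of white blood cells. LYZ, which encodes lysozyme, measured 9.06, 10.1, 8.75 and 7.61 FPKM in the 4 BPH-1 libraries and 7.76, 8.63, 0 and 0 FPKM in the 4 DU145 libraries. PTPRC, the CD45 antigen of blood cells, measured 1.40, 1.54, 1.31 and 1.15 FPKM in BPH-1 and 1.35, 1.25, 0 and 0 FPKM in DU145. DU145 replicates 1 and 2 were thus at the level of BPH-1 for both genes, and replicates 3 and 4 had no read of either. In all, 31 genes had at least 30 reads in each of DU145 replicates 1 and 2 and at most 3 reads in each of replicates 3 and 4, and 5 genes showed the reverse. Of the 31 genes, 29 also had at least 30 reads in every BPH-1 library, and 22 had at most 3 reads in every PC3 library. They include KRT5 and S100A9, described below, and MNDA, FCN1, CXCR1 and FCGR3B, genes of neutrophils and monocytes, and IGHM, an immunoglobulin heavy chain. The summed FPKM of a fixed list of 12 immune markers was 15.4 to 20.7 in BPH-1 and 16.3, 14.9, 10.6 and 5.50 in DU145 replicates 1 to 4. Of the 12 markers 6 were tested and 3 called, with ITGAM higher and CD14 and CSF1R lower in DU145. Over all genes tested, 62.6% were called. Without DU145 replicates 1 and 2, 1 marker was higher and 4 were lower. The part of these reads in the other results was not tested, and counts without replicates 1 and 2 are given below for the lists that they moved most.

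Stromal and endothelial markers were low in sum in both lines. Of 12 stromal markers, 4 passed the filter, with 2 lower in DU145 and none higher. Of 8 endothelial markers, 5 passed, with 1 higher and 1 lower. Over all genes tested, 30.3% were called higher and 32.3% lower. The stromal markers DCN, LUM and PDGFRA and the endothelial markers KDR, TEK and CLDN5 were among those under the filter. The 12 stromal markers summed to 5.59 to 7.56 FPKM in BPH-1 and 1.39 to 3.66 FPKM in DU145, and the 8 endothelial markers to 0.758 to 1.41 and 0.618 to 1.44 FPKM. FAP, a protease of activated fibroblasts, measured 3.72, 2.29, 2.70 and 2.08 FPKM in BPH-1 and was at 0 in all 4 DU145 libraries. COL1A1, a fibrillar collagen, was 2.44 ± 0.610 FPKM in BPH-1 and 0.438 ± 0.0695 FPKM in DU145. In these bulk libraries fewer cells of a type and less RNA per cell cannot be told apart.

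The lines differed in most of what they expressed. Of the 17070 genes tested, 10689 were called (62.6%), 5174 higher in DU145 (30.3%) and 5515 lower (32.3%), and the median log2 fold change over all genes was -0.03. A stricter rule, which also asks for a log2 fold change over 1 in size and no overlap between the libraries of the lines, was met by 4816 genes (28.2%), 1922 of them higher (11.3%) and 2894 lower (17%). That count was 3195 with the GC correction, 7641 with a pseudocount of 0.1 in place of 1, and 8024 with limma-voom on the recovered reads. In each of these counts, overlap was still judged on the deposited values, also for the GC correction. The libraries of the lines did not overlap at 10143 genes (59.4%), and of 13706 protein-coding genes tested 8632 were called (63%). The counts of each gene list below are to be read against these shares, which cover most genes. With the GC correction 10628 of 17056 genes were called (62.3%), 5880 higher (34.5%) and 4748 lower (27.8%). When each library was scaled to the same summed FPKM, the median of all genes moved to -0.16, and 4142 genes were called higher and 6585 lower.

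**Figure D1:**
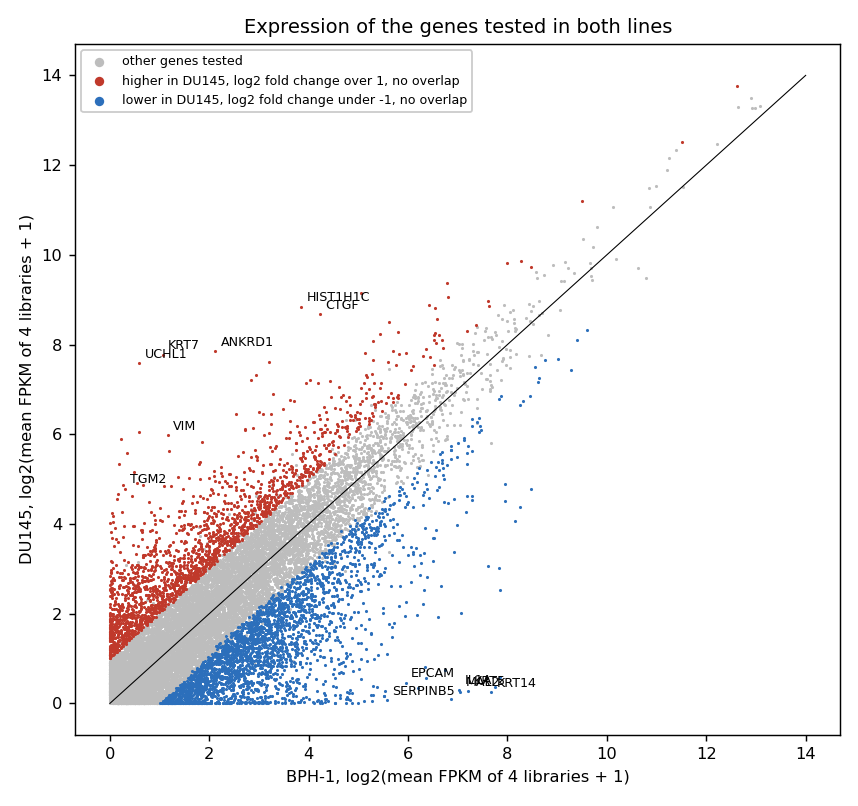
Mean expression of each tested gene in BPH-1 (horizontal axis) and DU145 (vertical axis), both as log2(mean FPKM of 4 libraries + 1), with a point for a gene and the diagonal marking equal levels. The 1922 genes past the stricter rule and higher in DU145 lie above the diagonal and the 2894 lower ones below it.

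The genes that fell most from BPH-1 to DU145 were basal keratins. KRT14, which pairs with KRT5 to build the intermediate filaments of basal cells, measured 238, 232, 162 and 179 FPKM in BPH-1 and 0.275, 0.442, 0.0222 and 0 FPKM in DU145. Every BPH-1 library stood far above every DU145 library, and DU145 replicates 1 and 2 held more KRT14 than 3 and 4. The log2 fold change was -7.42 (SE 0.19, limma adjusted p = 2.29e-08). KRT5 measured 175, 120, 123 and 170 FPKM in BPH-1 and 0.342, 0.499, 0.024 and 0 FPKM in DU145 (log2 fold change -6.93, SE 0.20, limma adjusted p = 2.60e-08). KRT17, a keratin of basal and injured epithelium, went from 213 ± 57.8 to 0.282 ± 0.217 FPKM (756-fold lower), and KRT6A, of the same kind, from 116 ± 24.6 to 0.0774 ± 0.126 FPKM (1498-fold lower). KRT14, KRT16 and KRT17, and likewise KRT6A and KRT6B, have near-identical stretches, so that reads may have been split between them by the authors' counting. KRT14 lies at chr17:41582279-41586921 and KRT5 at chr12:52514575-52520687 (GRCh38, minus strand).

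Further genes among the 12 largest falls were MAL2, IL1A, IFITM3, SPARC, S100A14, EPCAM and SERPINB5. EPCAM, which encodes a surface glycoprotein of epithelial cells (chr2:47345158-47387601, plus strand) was nearly the same in the BPH-1 libraries at 63.2, 57.7, 61.3 and 61.0 FPKM and measured 0.418, 0.573, 0.166 and 0.348 FPKM in DU145. That is a 162-fold difference (log2 fold change -5.50, SE 0.15, limma adjusted p = 2.29e-08). SERPINB5, the epithelial serpin maspin, went from 46.6 ± 4.19 to 0.0526 ± 0.0318 FPKM. SPARC, a matrix glycoprotein, went from 72.2 ± 12.1 to 0.268 ± 0.0288 FPKM, and the proteolipid MAL2, which works in apical transport, from 131 ± 49.1 to 0.201 ± 0.0694 FPKM. Each of these 7 genes was called in the same direction after the GC correction.

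The largest rise was that of UCHL1, a ubiquitin hydrolase best known from neurons. It measured 0.534, 0.529, 0.574 and 0.399 FPKM in BPH-1 and 214, 159, 245 and 147 FPKM in DU145. All 4 DU145 libraries were more than 100 FPKM above all 4 BPH-1 libraries, and the ratio of the means was 376 (log2 fold change 6.97, SE 0.19, limma adjusted p = 2.29e-08). KRT7, a keratin of simple epithelia, measured 1.18, 1.40, 0.873 and 0.905 FPKM in BPH-1 and 260, 200, 255 and 158 FPKM in DU145 (200-fold higher, log2 fold change 6.69, SE 0.19, limma adjusted p = 2.47e-08). The libraries of the lines were again far apart. UCHL1 lies at chr4:41256413-41268455 (plus strand) and KRT7 at chr12:52232520-52252186 (plus strand).

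Further genes among the 12 largest rises had varied products. ANKRD1 and CTGF, which encode a nuclear ankyrin-repeat protein and a matricellular growth factor and are both known targets of the YAP and TAZ coactivators, rose from 3.34 ± 0.978 to 229 ± 83.3 FPKM and from 17.7 ± 5.53 to 408 ± 69.9 FPKM. VIM, the intermediate filament of mesenchymal cells, measured 1.32, 1.32, 1.11 and 1.24 FPKM in BPH-1 and 68.4, 51.4, 68.9 and 59.0 FPKM in DU145 (49.6-fold). TGM2, which cross-links matrix proteins, rose from 0.234 ± 0.0496 to 26.6 ± 2.65 FPKM, and COL6A2, a chain of collagen VI, from 0.397 ± 0.259 to 34.5 ± 8.45 FPKM. The peptide hormone gene ADM2 rose from 0.266 ± 0.119 to 46.9 ± 9.97 FPKM and the insulin-like growth factor binding gene IGFBPL1 from 0.134 ± 0.198 to 39.7 ± 6.71 FPKM. HIST1H1C, a linker histone, rose 34.1-fold to 459 ± 163 FPKM, the potassium channel gene KCNK15 138-fold to 28.3 ± 8.52 FPKM, and XAGE1A, a cancer-testis gene with a near-identical copy, 349-fold to 58.3 ± 15.02 FPKM. All 12 were called in the same direction after the GC correction, with log2 fold changes of 4.19 to 6.66.

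**Figure D2:**
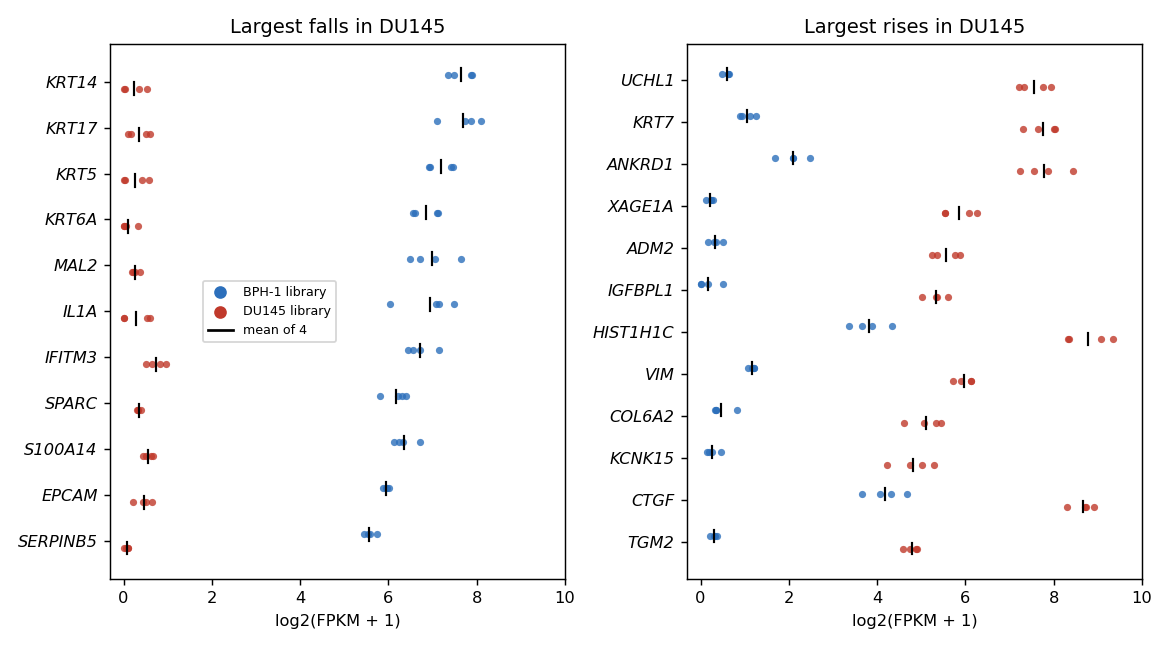
Expression of 11 of the 12 genes with the largest fall and the 12 with the largest rise in every library, with log2(FPKM + 1) on the horizontal axis, a point for a library and a line for the mean of 4. In no gene do the points of the lines overlap, and the BPH-1 points of KRT14 (162 to 238 FPKM) and the DU145 points of UCHL1 (147 to 245 FPKM) each face points near 0 in the other line.

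To set the most changed genes beside their start regions, the 250 bases before the RefSeq start site are given for KRT5 and UCHL1, the largest fall and rise for which the reference used here holds a promoter. Sequences are from RefSeq (GRCh38.p14), run 5′ to 3′ on the strand of the gene, and show each CG dinucleotide (CpG), the site of DNA methylation in human cells, in capitals. The KRT5 region is chr12:52520395-52520644 on the minus strand and the UCHL1 region chr4:41256678-41256927 on the plus strand. For both genes RefSeq places the start inside the outer bounds given above, which are those of GENCODE 29, so that each stretch lies within the gene as GENCODE 29 draws it.
KRT5: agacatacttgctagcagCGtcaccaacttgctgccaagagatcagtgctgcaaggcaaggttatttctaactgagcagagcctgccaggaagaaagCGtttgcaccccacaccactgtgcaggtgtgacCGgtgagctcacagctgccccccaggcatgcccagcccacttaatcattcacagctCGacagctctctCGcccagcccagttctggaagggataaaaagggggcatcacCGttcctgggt
UCHL1: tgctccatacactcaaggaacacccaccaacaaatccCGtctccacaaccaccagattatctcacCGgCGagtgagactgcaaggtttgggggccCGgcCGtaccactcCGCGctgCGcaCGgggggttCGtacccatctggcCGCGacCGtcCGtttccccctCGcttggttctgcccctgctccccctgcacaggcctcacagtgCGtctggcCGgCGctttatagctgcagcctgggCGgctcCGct
The KRT5 region holds 6 CpG in 250 bases and the UCHL1 region 20. In a window of 300 bases, from 250 before the start to 50 after it, promoters of the 10932 tested protein-coding genes that could be matched held a median of 26 CpG. The 6 of the 12 largest falls with a promoter held 5 to 16 CpG (median 8), and the 9 of the 12 largest rises held 5 to 41 (median 17). These are descriptions of sequence, and DNA methylation was not measured.

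The basal programme fell nearly as a whole. Of 12 basal epithelial markers, 11 were lower in DU145 and 1 was higher, with a median log2 fold change of -3.81 against -0.03 over all genes, and the counts were the same after the GC correction and 10 lower and 1 higher without DU145 replicates 1 and 2. TP63, the basal transcription factor, measured 13.5, 13.8, 13.3 and 11.2 FPKM in BPH-1 and 0.0446, 0.0542, 0.0156 and 0 FPKM in DU145 (log2 fold change -3.76, SE 0.14, limma adjusted p = 8.13e-08). The lines did not overlap, and TP63 was close to absent from every DU145 library. COL17A1, the hemidesmosomal collagen, went from 95.7 ± 6.47 to 2.83 ± 0.867 FPKM. Chains of the laminin that anchors basal cells to the basement membrane did not move together. LAMA3 fell from 47.9 ± 12.8 to 2.38 ± 1.34 FPKM, while LAMB3, the exception in the list, rose from 98.1 ± 20.3 to 294 ± 84.8 FPKM (log2 fold change 1.55, SE 0.23, limma adjusted p = 0.000277).

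Luminal and simple epithelial markers were mixed. Of 11 tested, 3 were higher and 4 lower, with a median log2 fold change of -0.53, and 2 were higher and 2 lower without DU145 replicates 1 and 2. Besides KRT7, KRT18 was higher (35.8 ± 6.15 against 69.0 ± 21.9 FPKM), a call that was lost with the GC correction (0.40, limma adjusted p = 0.0611). KRT8, its partner, measured 30.2, 33.9, 18.7 and 41.7 FPKM in BPH-1 and 16.6, 14.8, 32.5 and 14.7 FPKM in DU145. The lines overlapped for KRT8 through DU145 replicate 3, and the gene was not called (limma adjusted p = 0.0801), although it was called lower after the GC correction (-1.11, limma adjusted p = 0.00292). CD24, a surface protein of luminal cells, fell 142-fold from 26.1 ± 9.28 to 0.184 ± 0.0728 FPKM. With the GC correction the list held 1 member higher, KRT7, and 7 lower.

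Among androgen-responsive genes of the prostate, KLK3, which encodes prostate-specific antigen, had no read in any of the 8 libraries. Of 15 genes in the list 9 were tested, 1 higher and 5 lower. HOXB13, a homeobox gene of prostate epithelium, measured 1.76, 1.89, 1.34 and 1.44 FPKM in BPH-1 and 0 in every DU145 library, at least 28.5-fold lower against a floor of 3 reads a library. Neuroendocrine markers summed to 3.82 to 4.73 FPKM in BPH-1 and 2.93 to 4.38 FPKM in DU145, with 5 of 12 tested and 3 lower, and CHGB, a granin of secretory granules, at 0.491 ± 0.168 FPKM in BPH-1 and 0 in DU145. SYP and SCG2, of synaptic and secretory vesicles, were the other lower ones, at 0.246 ± 0.0499 and 0.0558 ± 0.0687 FPKM in DU145.

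Genes of epithelial junctions were lower in DU145. Of 28 tested, 21 were lower and 2 higher, with a median log2 fold change of -2.14, and 18 were lower and 4 higher after the GC correction. CDH1, which encodes E-cadherin, measured 22.6, 44.6, 16.3 and 30.2 FPKM in BPH-1 and 0.128, 0.297, 0.0851 and 0.211 FPKM in DU145 (158-fold lower, log2 fold change -4.55, SE 0.27, limma adjusted p = 8.85e-07). The BPH-1 libraries varied among themselves and still all stood far above DU145. The desmosomal genes DSP and PKP1 went from 133 ± 29.3 to 3.05 ± 2.60 FPKM and from 38.3 ± 5.97 to 0.140 ± 0.0387 FPKM. The epithelial regulators GRHL2, a transcription factor, and ESRP1, a splicing factor, went from 12.7 ± 1.62 to 0.0147 ± 0.0174 FPKM and from 11.9 ± 1.39 to 0.383 ± 0.194 FPKM. The exceptions were CLDN3, a tight-junction claudin, which rose from 1.02 ± 0.618 to 15.96 ± 5.55 FPKM, and CTNNA1, which encodes alpha-catenin and rose from 13.8 ± 1.72 to 32.8 ± 2.44 FPKM. CTNNB1, which encodes beta-catenin, was lower as deposited (-0.86, limma adjusted p = 0.00231) and not called, with the opposite sign, after the GC correction (0.54, limma adjusted p = 0.0964). CLDN1 and OCLN, not called as deposited, were called higher after it (1.71 and 1.42).

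Mesenchymal genes did not rise as a group. Of 21 genes linked to epithelial-mesenchymal transition (EMT), 8 were higher and 9 lower, and the median log2 fold change was 0.02. VIM, AXL (a receptor tyrosine kinase, 34.7 ± 8.30 against 158 ± 23.9 FPKM), SNAI1 (a repressor of CDH1, 0.489 ± 0.230 against 6.17 ± 2.07 FPKM) and the collagen VI chains COL6A1 and COL6A2 were among the higher ones. Other hallmarks of the same programme were lower. FN1, which encodes fibronectin, measured 95.6, 125, 63.8 and 33.5 FPKM in BPH-1 and 0.534, 0.952, 0.586 and 0.995 FPKM in DU145 (104-fold lower, log2 fold change -5.36, SE 0.35, limma adjusted p = 1.53e-06). CDH2, which encodes N-cadherin, went from 5.10 ± 1.28 to 0.0489 ± 0.0265 FPKM, and SNAI2, a relative of SNAI1 that is also active in basal cells, from 65.3 ± 12.8 to 5.50 ± 2.39 FPKM. BPH-1 thus held more FN1, CDH2, SNAI2 and SPARC, and DU145 more VIM, AXL, SNAI1 and collagen VI.

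Integrins and laminins, which fix cells to the matrix, moved both ways. Of 23 tested, 9 were higher and 11 lower, with a median of -0.02. ITGA6 and ITGB4, the pair of the hemidesmosome, went from 75.7 ± 9.63 to 7.69 ± 5.78 FPKM and from 60.3 ± 12.3 to 2.84 ± 0.697 FPKM. ITGB3, a beta chain that pairs with the alpha V integrin, measured 0.258, 0.756, 0.577 and 0.217 FPKM in BPH-1 and 29.8, 24.2, 32.5 and 30.7 FPKM in DU145 (64.9-fold higher, log2 fold change 4.39, SE 0.18, limma adjusted p = 1.14e-07). ITGB5 rose from 6.56 ± 0.696 to 18.96 ± 6.38 FPKM. LAMA1, a laminin alpha chain, was at 0.0107 ± 0.00731 FPKM in BPH-1 and 6.47 ± 2.25 FPKM in DU145. ITGB1, the shared beta chain, showed how far the DU145 libraries could part. It measured 28.4, 124, 16.5 and 105 FPKM in DU145 replicates 1 to 4, on both sides of the BPH-1 range of 37.5 to 70.3 FPKM, and was not called (-0.02, limma adjusted p = 0.983). It was called higher with the GC correction (1.03) and without DU145 replicates 1 and 3 (1.16), and lower without replicates 2 and 4 (-1.19).

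Genes induced by interferon were lower in DU145. Of 45 tested, 33 were lower and 1 higher, with a median log2 fold change of -1.52, and 35 were lower and none higher after the GC correction. Without DU145 replicates 1 and 2, 31 of 46 were lower and none higher. IFITM3, a membrane protein that blocks viral entry, measured 93.5, 140, 86.5 and 104 FPKM in BPH-1 and 0.433, 0.574, 0.940 and 0.767 FPKM in DU145 (log2 fold change -5.98, SE 0.19, limma adjusted p = 3.50e-08). No DU145 library reached 1 FPKM. IFI44, SAMD9 and IFI16, the last a sensor of DNA, went from 27.4 ± 9.09 to 0.223 ± 0.0904 FPKM, from 23.9 ± 7.45 to 0.0788 ± 0.0777 FPKM and from 23.7 ± 3.90 to 0.133 ± 0.134 FPKM. ISG15, a ubiquitin-like modifier, went from 40.6 ± 18.6 to 14.3 ± 4.87 FPKM. USP18, which removes ISG15 from proteins, was the higher member (12.2 ± 6.22 against 20.1 ± 4.47 FPKM, limma adjusted p = 0.0419), and lost its call when any 1 of BPH-1 replicates 1, 3 and 4 or DU145 replicates 1 and 3 was left out (adjusted p 0.0931 to 0.115).

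Presentation by HLA class I differed less. Of 19 genes, 6 were lower, none was higher and 13 were not called, with a median of -0.26, and 9 were lower and 2 higher after the GC correction. Without DU145 replicates 1 and 2, 3 were lower and none higher. HLA genes share long stretches, so their reads are uncertain. B2M, the light chain, was not called (11.2 ± 5.11 against 9.50 ± 5.78 FPKM, limma adjusted p = 0.567). ERAP2, which trims peptides, was lower (10.6 ± 3.95 against 2.44 ± 2.04 FPKM), but not called with the GC correction (-0.69, limma adjusted p = 0.0763), and PSMB9, an immunoproteasome subunit, was lower too (8.82 ± 3.09 against 4.14 ± 1.04 FPKM).

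Among 36 inflammatory cytokines and NF-kB targets, 19 were lower and 11 higher, with a median log2 fold change of -0.75. With the GC correction 17 were lower and 12 higher, with a median of -0.35, and without DU145 replicates 1 and 2, 17 were lower and 9 higher. The lower ones included both forms of interleukin 1. IL1A measured 179, 141, 134 and 64.6 FPKM in BPH-1 and 0.436, 0.520, 0 and 0 FPKM in DU145, and IL1B 33.5, 35.7, 24.0 and 12.2 FPKM in BPH-1 and 0.0828, 0.200, 0.0621 and 0.0715 FPKM in DU145 (log2 fold changes -6.66 and -4.53). In neither gene did the lines overlap. PTGS2, which encodes cyclooxygenase 2, went from 8.33 ± 2.17 to 0.0197 ± 0.00851 FPKM, and complement C3 from 23.5 ± 12.7 to 0.852 ± 0.195 FPKM. The higher ones included LIF, an interleukin 6 family cytokine, which measured 5.19, 5.20, 5.08 and 3.91 FPKM in BPH-1 and 103, 72.1, 98.9 and 71.2 FPKM in DU145 (17.8-fold, log2 fold change 3.89, SE 0.18, limma adjusted p = 2.44e-07). IL11, of the same family, rose from 5.48 ± 0.655 to 31.1 ± 11.98 FPKM, the adhesion molecule ICAM1 from 11.3 ± 6.94 to 65.1 ± 17.7 FPKM and the chemokine CXCL2 from 6.83 ± 2.41 to 43.8 ± 23.8 FPKM. NFKB2 and RELB, the subunits of the alternative NF-kB pathway, rose from 23.6 ± 2.39 to 93.2 ± 23.6 FPKM and from 4.84 ± 0.334 to 12.9 ± 3.58 FPKM. CXCL8, the chemokine interleukin 8, was not called (39.2 ± 16.8 against 91.6 ± 63.3 FPKM, limma adjusted p = 0.0578) but was after the GC correction (3.76, limma adjusted p = 4.79e-05) and without DU145 replicate 3 (1.38, limma adjusted p = 0.0328).

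Proteases and their inhibitors were mostly lower. Of 28 tested, 21 were lower and 3 higher, with a median log2 fold change of -1.28. The gelatinases MMP2 and MMP9 measured 11.9 ± 1.98 and 9.97 ± 6.66 FPKM in BPH-1 and 0.116 ± 0.119 and 0.0934 ± 0.119 FPKM in DU145. Their inhibitors parted, with TIMP3 at 4.85 ± 1.62 FPKM in BPH-1 and 0.00335 ± 0.00671 FPKM in DU145, and TIMP2 at 11.7 ± 5.02 FPKM in BPH-1 and 37.8 ± 5.97 FPKM in DU145. SERPINB2, which inhibits the urokinase PLAU, fell from 26.0 ± 13.6 to 0.0735 ± 0.0197 FPKM, and the elastase inhibitor PI3 from 28.3 ± 22.7 to 0.920 ± 0.369 FPKM. PLAU itself was not called (113 ± 36.7 against 152 ± 34.7 FPKM, limma adjusted p = 0.14). The other higher members were SERPINB1 (0.71, limma adjusted p = 0.0180, lost without BPH-1 replicate 1 or 3 at 0.0563 and 0.0554) and the cathepsin CTSZ (0.60, limma adjusted p = 0.0138, not called with the GC correction). Without DU145 replicates 1 and 2 the list held 1 higher and 17 lower of 30.

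S100 proteins, small calcium binders, were mixed. With metallothioneins, 6 of 17 were higher and 5 lower, with a median log2 fold change of 0.16, and 4 were higher and 6 lower after the GC correction, with a median of -0.21. S100A2, of basal cells, measured 237, 164, 195 and 184 FPKM in BPH-1 and 7.96, 5.78, 10.0 and 5.87 FPKM in DU145 (log2 fold change -4.56, SE 0.20, limma adjusted p = 1.88e-07). S100A14 went from 81.3 ± 15.4 to 0.479 ± 0.109 FPKM. S100A9, a subunit of calprotectin, measured 80.6, 636, 87.2 and 330 FPKM in BPH-1 and 30.7, 31.9, 0 and 0 FPKM in DU145, so that its DU145 value came from the same replicates 1 and 2 that held LYZ and PTPRC. S100A6 rose from 53.1 ± 8.91 to 184 ± 67.3 FPKM, S100A3 from 2.50 ± 0.420 to 8.50 ± 1.54 FPKM, and MT1E, a metal-binding metallothionein with close copies, from 8.43 ± 1.49 to 73.9 ± 21.5 FPKM.

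Among 31 receptors and ligands of growth factors, 13 were higher and 10 lower, with a median of 0.27, and 15 were higher and 11 lower after the GC correction, with a median of 0.02. VEGFA, the main angiogenic factor, measured 3.25, 2.19, 5.42 and 3.09 FPKM in BPH-1 and 27.2, 21.5, 26.5 and 21.8 FPKM in DU145 (6.96-fold higher, log2 fold change 2.53, SE 0.22, limma adjusted p = 8.11e-06). VEGFC, which acts on lymphatic vessels, moved the other way, from 55.8 ± 11.003 to 5.17 ± 1.09 FPKM, and the lines overlapped in neither gene. PDGFB rose from 2.62 ± 0.821 to 13.6 ± 3.09 FPKM. FGFBP1, a carrier of fibroblast growth factors, and IGFBP7, a secreted binding protein, fell from 46.8 ± 13.2 to 1.15 ± 0.209 FPKM and from 12.4 ± 6.11 to 0.262 ± 0.248 FPKM. The receptor genes EGFR and MET split the DU145 libraries. EGFR measured 47.9, 42.1, 38.9 and 37.5 FPKM in BPH-1 and 5.60, 31.4, 2.33 and 31.9 FPKM in DU145, and MET 41.8, 51.5, 40.05 and 33.2 FPKM in BPH-1 and 2.78, 14.1, 1.14 and 14.99 FPKM in DU145. In both genes the lines did not overlap, and DU145 replicates 1 and 3 were several times below 2 and 4. MET was called (log2 fold change -2.66, limma adjusted p = 0.00299), and EGFR was called at the margin (-1.78, limma adjusted p = 0.0393), which it lost without any 1 BPH-1 library or without DU145 replicate 1 or 3 (adjusted p 0.0675 to 0.106).

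**Figure D3:**
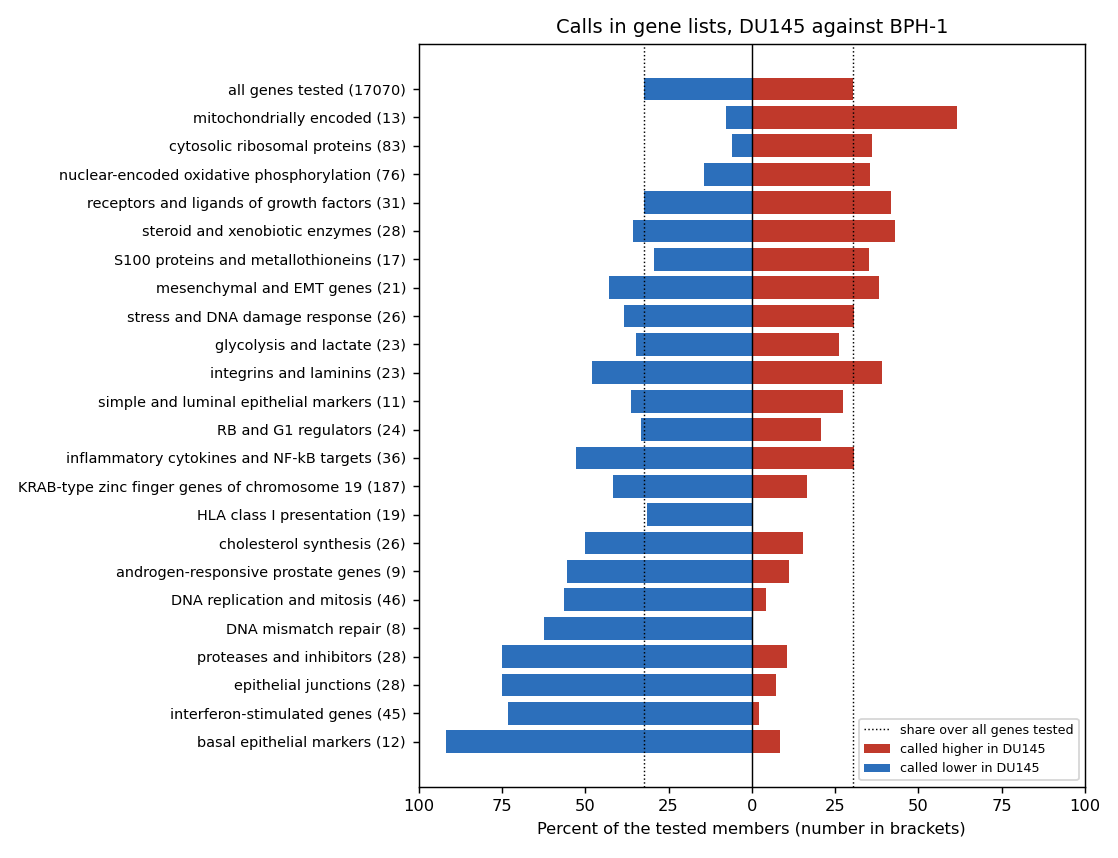
Share of the tested members of 23 gene lists that were called higher in DU145 (to the right) or lower (to the left), in percent, with the number tested in brackets, the share over all genes tested as dotted lines, and 5 lists with 6 or fewer members tested left out. Basal markers (11 of 12 lower), epithelial junctions and proteases (21 of 28 each) and interferon-stimulated genes (33 of 45) extend furthest to the left, and the mitochondrially encoded genes (8 of 13 higher) furthest to the right.

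Genes of DNA replication and mitosis were more often lower than higher. Of 46 tested, 26 were lower and 2 higher, with a median log2 fold change of -0.78, and 28 were lower and 2 higher after the GC correction. TOP2A, the topoisomerase that untangles replicated DNA, measured 109, 103, 100.8 and 91.6 FPKM in BPH-1 and 2.49, 10.3, 0.943 and 6.597 FPKM in DU145 (log2 fold change -4.37, SE 0.46, limma adjusted p = 2.92e-05). MKI67, the gene of the proliferation marker Ki-67, measured 86.1, 73.6, 78.9 and 75.1 FPKM in BPH-1 and 1.54, 8.59, 0.297 and 8.53 FPKM in DU145 (log2 fold change -4.25, SE 0.58, limma adjusted p = 0.000144). The lines did not overlap in either gene, and DU145 replicates 1 and 3 were the lowest in both. KIF11, a spindle motor, went from 43.8 ± 4.54 to 3.03 ± 2.26 FPKM. CDK1, the kinase of mitotic entry, was lower as deposited (-2.07, limma adjusted p = 6.32e-05) and not called after the GC correction, with the opposite sign (0.25, limma adjusted p = 0.214). TYMS, which makes thymidylate, was higher (24.4 ± 3.64 against 70.8 ± 10.7 FPKM, log2 fold change 1.496, SE 0.17), as was the replication licensing gene CDC6 (19.8 ± 1.71 against 28.2 ± 4.34 FPKM, limma adjusted p = 0.0222, and 0.0503, 0.0654 and 0.0519 without BPH-1 replicate 3 or 4 or DU145 replicate 4).

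Of 24 regulators of RB and of the G1 phase, 5 were higher and 8 lower, and 4 were higher and 10 lower after the GC correction. RB1 itself measured 13.8, 11.8, 11.3 and 13.2 FPKM in BPH-1 and 0.620, 2.26, 0.203 and 1.77 FPKM in DU145 (10.3-fold lower, log2 fold change -2.72, SE 0.30, limma adjusted p = 3.55e-05). It lies in the AT-rich part of the GC range, and its log2 fold change was -1.11 after the GC correction (limma adjusted p = 0.00129). CCND2, which encodes cyclin D2, fell 360-fold from 44.6 ± 8.77 to 0.124 ± 0.0850 FPKM, and CDK6, its kinase, 44.7-fold from 28.7 ± 3.92 to 0.642 ± 0.481 FPKM. The transcription factors E2F1 and E2F2, which RB holds in check, were higher (18.5 ± 1.60 against 39.4 ± 9.95 FPKM and 1.77 ± 1.03 against 5.89 ± 1.07 FPKM), as was CDK2 (4.95 ± 0.552 against 11.7 ± 3.27 FPKM). CDKN2A, the locus of p16, was not called (33.8 ± 5.76 against 24.5 ± 10.9 FPKM, limma adjusted p = 0.114) and was called lower without DU145 replicate 3 (-0.78, limma adjusted p = 0.00515).

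Genes of the response to stress and DNA damage moved both ways, with 8 of 26 higher and 10 lower and a median log2 fold change of -0.40. After the GC correction 10 were higher and 11 lower, and the median had the opposite sign (0.13). CDKN1A, which encodes p21, was not called (27.6 ± 6.44 against 26.1 ± 10.1 FPKM, limma adjusted p = 0.706). The higher members were led by SESN2, GADD45A and TNFRSF10B, which act in the response to nutrient or DNA stress and in death receptor signalling. GADD45A measured 22.8, 18.96, 27.7 and 14.3 FPKM in BPH-1 and 118, 122, 123 and 85.2 FPKM in DU145 (log2 fold change 2.39, SE 0.22, limma adjusted p = 1.15e-05). SESN2 rose from 5.49 ± 0.933 to 34.5 ± 9.26 FPKM and TNFRSF10B from 14.7 ± 1.13 to 59.2 ± 6.29 FPKM. MDM2, a ubiquitin ligase, was lower (7.03 ± 0.251 against 1.30 ± 1.05 FPKM), and so were the antiproliferative gene BTG2 (12.1 ± 2.47 against 3.06 ± 0.792 FPKM) and the polymerase gene POLK (2.73 ± 0.334 against 0.224 ± 0.153 FPKM). CCNG1, which encodes cyclin G1, was lower as deposited (-0.94, limma adjusted p = 0.00212) and higher after the GC correction (0.44, limma adjusted p = 0.0243).

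Of 8 genes of DNA mismatch repair, 5 were lower and none higher, with a median of -1.11. The MutS genes MSH3 and MSH6, which recognise mismatches, went from 8.52 ± 0.536 to 1.05 ± 0.790 FPKM and from 7.56 ± 0.718 to 2.23 ± 1.53 FPKM. DU145 replicates 1 and 3 were below 2 and 4 in both. PMS2, of the MutL family, was not called (0.22). These genes have a median GC content of 42.9%, against 48.7% over all genes tested, and with the GC correction 3 were lower and 1, PMS2, was higher (1.35, limma adjusted p = 0.000992).

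In metabolism, 6 of 23 genes of glycolysis and lactate were higher and 8 lower, and 5 and 5 without DU145 replicates 1 and 2. The glucose transporter gene SLC2A1 rose from 15.3 ± 5.35 to 50.2 ± 11.7 FPKM, and PFKP and PFKFB3, at the phosphofructokinase step, from 25.8 ± 1.88 to 106 ± 26.6 FPKM and from 2.60 ± 1.08 to 8.66 ± 1.36 FPKM. LDHA, which makes lactate, measured 93.3, 73.6, 76.1 and 73.8 FPKM in BPH-1 and 24.4, 29.1, 25.3 and 22.7 FPKM in DU145 (log2 fold change -1.60, SE 0.15, limma adjusted p = 1.29e-05), and SLC16A1, which carries lactate across the membrane, fell from 27.7 ± 3.21 to 5.04 ± 2.54 FPKM. The lines did not overlap in any of these 5 genes. ALDOC, an aldolase, was the other large fall (1.91 ± 0.670 against 0.471 ± 0.103 FPKM).

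Cholesterol synthesis was lower at 13 of 26 genes and higher at 4, with a median of -0.58. SQLE, the squalene epoxidase, went from 43.1 ± 12.5 to 6.27 ± 1.09 FPKM and MSMO1 from 8.68 ± 3.16 to 1.16 ± 0.579 FPKM. SREBF2, the regulator of the pathway, and PMVK, the phosphomevalonate kinase, were higher (9.53 ± 2.97 against 18.7 ± 4.27 FPKM and 13.3 ± 0.565 against 43.4 ± 10.8 FPKM).

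Of 28 enzymes of steroids, foreign compounds and oxidative stress, 12 were higher and 10 lower, and 16 were higher and 7 lower after the GC correction. The higher ones were led by genes known as targets of the stress regulator NRF2. NQO1, a quinone reductase, measured 8.25, 11.2, 31.1 and 31.2 FPKM in BPH-1 and 158, 128, 170 and 119 FPKM in DU145 (log2 fold change 2.95, SE 0.40, limma adjusted p = 0.000133). SRXN1 and HMOX1 rose from 34.3 ± 11.5 to 224 ± 51.2 FPKM and from 1.87 ± 0.962 to 18.4 ± 5.27 FPKM. Within BPH-1, replicates 3 and 4 were above 1 and 2 in all 3 genes, by less than the distance to DU145. ALDH1A3, which makes retinoic acid, went from 55.7 ± 32.0 to 7.90 ± 1.53 FPKM, CYP1B1 from 8.28 ± 2.21 to 2.35 ± 1.39 FPKM, and UGT1A6, whose exons are shared within its gene cluster, from 2.28 ± 1.25 to 0.00248 ± 0.00496 FPKM. HSD17B4, a peroxisomal enzyme, was lower as deposited (-0.75, limma adjusted p = 0.0399) and higher after the GC correction (0.85, limma adjusted p = 0.000564), and was not called when any 1 BPH-1 library or DU145 replicate 1 or 3 was left out.

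Over all genes tested, 30.3% were called higher and 32.3% lower. Nuclear genes of the respiratory chain and genes of the ribosome were called higher at a share near that, and lower less often. The counts moved with the DU145 libraries used and with the scaling. Of 76 nuclear genes of oxidative phosphorylation, 27 were higher and 11 lower, with a median log2 fold change of 0.28, and 31 were higher and 15 lower after the GC correction. Without DU145 replicates 1 and 3 the counts were 23 and 26, without 2 and 4 they were 42 and 11, and with equal summed FPKM in each library 16 and 20. ATP5MC2, a subunit of the ATP synthase ring, rose from 3.36 ± 0.816 to 17.0 ± 5.35 FPKM, and the complex I gene NDUFA7 from 6.31 ± 1.57 to 18.5 ± 4.18 FPKM. NDUFS5, of the same complex, fell from 233 ± 11.4 to 114 ± 33.9 FPKM, and ATP5PB from 23.8 ± 2.42 to 9.01 ± 4.00 FPKM. UQCRC2, of complex III, was lower as deposited (-1.14, limma adjusted p = 0.00185) and not called after the GC correction (0.39, limma adjusted p = 0.0809).

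Of the 13 genes encoded by mitochondrial DNA, 8 were higher and 1 lower, with a median of 0.63, and 11 were higher and none lower after the GC correction, with a median of 1.19. With equal summed FPKM in each library, 6 were higher and 1 lower, with a median of 0.38. Their summed FPKM was 57919.7 to 65709.8 in BPH-1 and 72035 to 112200 in DU145. MT-CO2, a subunit of cytochrome oxidase, measured 5993, 7067, 5719.95 and 6303 FPKM in BPH-1 and 13679, 13661, 11899 and 15986 FPKM in DU145 (2.20-fold, log2 fold change 1.14, SE 0.14, limma adjusted p = 7.42e-05). The lines were well separated. MT-ND2 and MT-ND1, of complex I, were higher too (log2 fold changes 1.01 and 0.95). The exception was MT-ND6, the sole one of them encoded on the light strand, at 1588 ± 405 FPKM in BPH-1 and 839 ± 149 FPKM in DU145 (-0.90, limma adjusted p = 0.00327), and it was not called after the GC correction (0.24, limma adjusted p = 0.565). Whether counting used strand is not given in the sources used here, so reads of MT-ND6 and of the opposite strand cannot be told apart. Of 83 cytosolic ribosomal protein genes, 30 were higher and 5 lower, with a median of 0.33, and 27 and 15 without DU145 replicates 1 and 3. Without DU145 replicates 2 and 4 the counts were 57 and 5, and with equal summed FPKM 22 and 11. RPS28, RPL39L and RPS27 rose most, from 0.592 ± 0.106 to 28.3 ± 7.41 FPKM, from 0.352 ± 0.0922 to 23.5 ± 8.87 FPKM and from 7.58 ± 0.646 to 62.2 ± 16.9 FPKM, and all have pseudogenes that may share their reads. RPL36AL, RPL22 and RPL6 fell most (log2 fold changes -1.64, -1.26 and -1.06), and RPL36AL and RPL6 were not called after the GC correction (-0.41 and -0.24).

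Some genes were expressed in DU145 or BPH-1 and close to absent from the other. With at least 100 reads in each of the 4 libraries of 1 line and at most 3 reads in each of the other 4, 40 genes were seen in DU145 and not BPH-1, 33 of them protein-coding, and 117 in BPH-1 and not DU145, 110 of them protein-coding. PC3 was not used in that rule, and its mean was at least 1 FPKM at 9 of the 40 genes and 29 of the 117. The DU145 genes of highest mean FPKM were MT1L, XAGE1B, RPL31P11, MGMT, NPTX2 and HTR1F, of which MT1L, XAGE1B and RPL31P11 have near-identical copies. MGMT, which removes alkyl groups from guanine in DNA, measured 0, 0.0172, 0 and 0.0337 FPKM in BPH-1 and 9.49, 5.76, 10.3 and 6.30 FPKM in DU145 (log2 fold change 3.11, SE 0.19, limma adjusted p = 9.79e-07). PC3 expressed it too, at 3.69 to 4.02 FPKM. The neuronal pentraxin gene NPTX2 and the serotonin receptor gene HTR1F reached 6.85 ± 1.95 and 6.65 ± 3.45 FPKM in DU145. The BPH-1 genes of highest mean FPKM were AMTN, BEX1, TMPRSS11E, HEPHL1, CBLC and FAM83B. AMTN, which encodes an adhesion protein of tooth and gum epithelium, measured 44.6, 25.9, 62.5 and 18.3 FPKM in BPH-1 and 0, 0.147, 0 and 0 FPKM in DU145. HEPHL1, a copper-dependent oxidase, measured 13.3, 50.6, 13.4 and 11.04 FPKM in BPH-1 and had no read in DU145 (at least 603-fold lower against a floor of 3 reads a library), with 0.347 to 2.66 FPKM in PC3. TMPRSS11E, a serine protease of epithelia, was 22.2 ± 5.55 FPKM in BPH-1, and the ubiquitin ligase gene CBLC 17.7 ± 1.46 FPKM.

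The start regions of MGMT and AMTN are shown because they differ widely in CpG and belong to genes that were expressed in DU145 and not BPH-1 (MGMT) or in BPH-1 and not DU145 (AMTN). The MGMT region is chr10:129466991-129467240 on the plus strand, and the AMTN region chr4:70518319-70518568 on the plus strand (RefSeq, GRCh38.p14, 250 bases before the RefSeq start site, 5′ to 3′, CpG in capitals). The last bases of both stretches overlap the gene as GENCODE 29 draws it.
MGMT: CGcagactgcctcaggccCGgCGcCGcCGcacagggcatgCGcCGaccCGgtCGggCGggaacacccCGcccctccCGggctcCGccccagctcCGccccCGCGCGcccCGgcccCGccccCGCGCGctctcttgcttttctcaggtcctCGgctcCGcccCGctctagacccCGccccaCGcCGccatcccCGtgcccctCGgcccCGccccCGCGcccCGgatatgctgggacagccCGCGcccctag
AMTN: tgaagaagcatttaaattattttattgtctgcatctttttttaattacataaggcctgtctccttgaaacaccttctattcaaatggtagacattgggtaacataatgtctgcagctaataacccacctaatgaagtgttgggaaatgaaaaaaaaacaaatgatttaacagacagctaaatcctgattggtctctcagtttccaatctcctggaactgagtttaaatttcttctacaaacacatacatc
The MGMT region holds 36 CpG and the AMTN region 0. In the 300-base window, 22 of the 33 protein-coding genes seen in DU145 and not BPH-1 could be matched and had a median of 26 CpG, equal to that of all tested protein-coding genes, and 88 of the 110 seen in BPH-1 and not DU145 had a median of 17.5. The letters TATAAA, on either strand, stood in 14.8% of the BPH-1 windows, none of the DU145 windows and 5.76% of those of all tested protein-coding genes. TGANTCA, the letters of the AP-1 site, stood in 11.4%, none and 4.70%. GGGCGG, those of the SP1 site, stood in 50% of the BPH-1 windows, 68.2% of the DU145 windows and 70.01% of all tested. With 22 DU145 windows, a share of none cannot be told from the low shares over all tested genes. The sets also differed in base content, with a median GC of 59.2% in the BPH-1 windows, 71.8% in the DU145 windows and 65.3% in all tested. The part of base content in these shares was not tested. A match of letters is a description of sequence and not a site of binding.

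Of 22 cancer-testis genes, which are normally read in germ cells, 3 passed the filter. XAGE1A and PRAME were higher, PRAME at 0, 0.0135, 0 and 0.0132 FPKM in BPH-1 and 2.88, 2.01, 3.03 and 2.43 FPKM in DU145 (log2 fold change 1.82, SE 0.11, limma adjusted p = 9.69e-07). The remaining member, TEX15, was at 0.262 ± 0.108 FPKM in BPH-1 and 0.0903 ± 0.0821 FPKM in DU145. It was called lower (-0.21, limma adjusted p = 0.0326), a call lost without BPH-1 replicate 1, 3 or 4 or DU145 replicate 1 or 3 (adjusted p 0.0562 to 0.0883). Of 187 tested ZNF genes of chromosome 19, most of which encode KRAB zinc finger repressors, 31 were higher and 78 lower, and 45 and 57 after the GC correction. ZNF738 was at 0 in all 4 BPH-1 libraries and at 1.37 ± 0.234 FPKM in DU145 (at least 38.6-fold higher), and ZNF320 and ZNF677 reached 1.03 ± 0.502 and 0.871 ± 0.414 FPKM there. ZNF146, ZNF845 and ZNF714 fell most, from 26.4 ± 6.19 to 4.31 ± 2.68 FPKM, from 3.77 ± 0.860 to 0.199 ± 0.172 FPKM and from 3.21 ± 0.268 to 0.197 ± 0.0408 FPKM.

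Across all genes the calls followed GC content. The tested genes were divided into 10 equal groups by GC content. In the group with the lowest (median 37.7%), 3.81% were called higher in DU145 and 75.9% lower, and the median log2 fold change was -1.06. In the group with the highest (median 63.6%), 49.8% were called higher and 13.9% lower, and the median was 0.40. The DU145 libraries also spread more, with a median SD of 0.21 to 0.37 on the log2(FPKM + 1) scale across the 10 groups against 0.14 to 0.16 in BPH-1. After the GC correction the lowest group held 34.7% higher and 31.5% lower, and the highest 35.5% and 31.4%. Of the genes in both analyses, 7854 were called in the same direction, 2466 lost their call, 357 were called in the opposite direction and 2417 were newly called. Of 4810 genes past the stricter rule, 4013 kept their call and direction, 692 were not called and 105 were called the other way.

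The falls that depended on the correction were ones of AT-rich genes. ZNF770, with 36.3% GC, measured 28.8, 20.4, 34.1 and 31.1 FPKM in BPH-1 and 2.27, 9.07, 1.31 and 7.22 FPKM in DU145. Its log2 fold change was -2.54 as deposited (SE 0.44, limma adjusted p = 0.000652) and -0.35 after the correction (limma adjusted p = 0.168), and DU145 replicates 1 and 3 were the lowest. PPP1CB, a phosphatase catalytic subunit, LAMP2, a lysosomal membrane protein, and COPS2, of the COP9 signalosome, went the same way, from -2.41, -2.41 and -2.37 to -0.36, -0.16 and -0.23. Among the rises, S100A10, CIAO2B, PPAN and the read-through gene PPAN-P2RY11, which shares exons with PPAN, lost their calls, with log2 fold changes from 1.06 to 2.17 as deposited and from 0.49 to 1.67 after it.

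**Figure D4:**
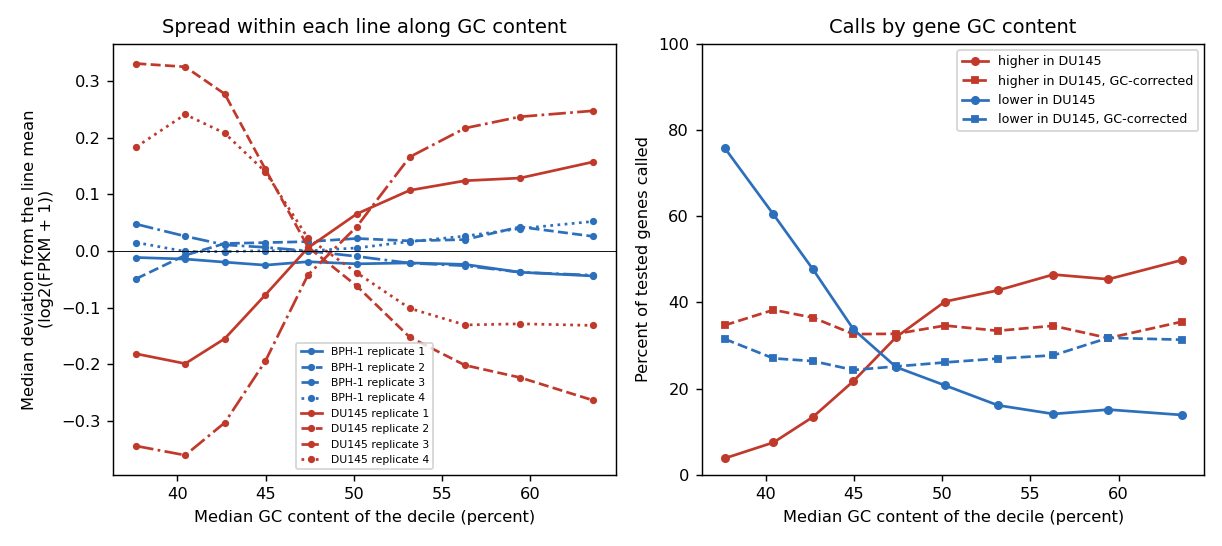
Left, the median deviation of each library from the mean of its own line, in log2(FPKM + 1), in 10 equal groups of genes by GC content (horizontal axis, median percent), and right, the percent of tested genes called higher or lower in DU145 in the same groups, as deposited (solid) and after the GC correction (dashed). DU145 replicates 1 and 3 rise with GC content while 2 and 4 fall and the BPH-1 libraries stay near 0, and the share called lower drops from 75.9% to 13.9% as deposited and stays between 24.3% and 31.8% after the correction.

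By chromosome, protein-coding genes of the X chromosome were low both as deposited and after the GC correction. Of 459 tested, 11.3% were called higher and 59.7% lower, and the median log2 fold change was -0.57 as deposited and -0.44 after the correction. On that chromosome, 18 genes were past the stricter rule and higher, and 154 lower. Chromosome 13 had a similar median as deposited (-0.58, 220 genes) that moved to 0.04 after the correction, and its genes had a median GC content of 42.6%. Chromosome 21 was among the highest both ways (0.38 and 0.36, 131 genes). Chromosome 22 went from 0.37 to 0.13, and chromosome 18 from -0.12 to 0.36. Genes of a chromosome are not independent replicates, so no test is given.

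**Figure D5:**
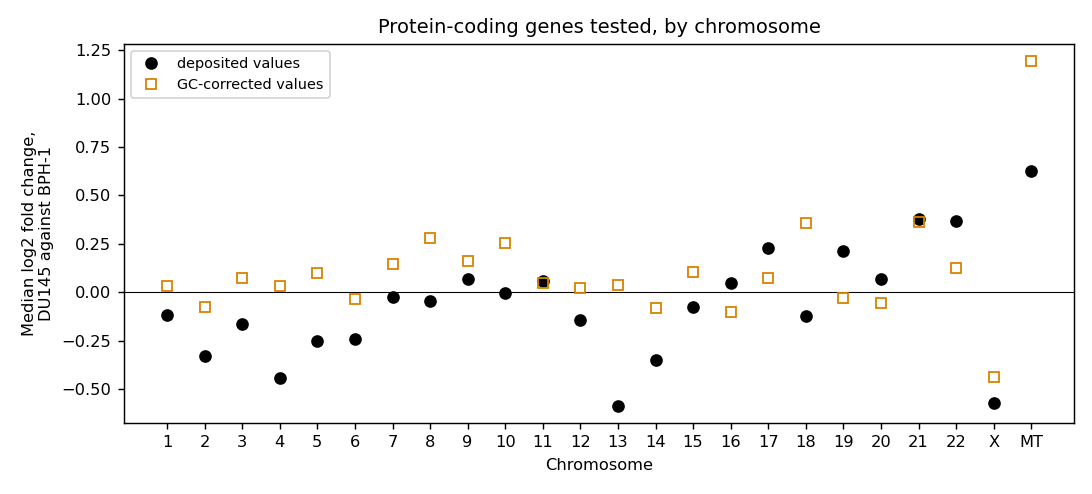
Median log2 fold change of DU145 against BPH-1 over the tested protein-coding genes of each chromosome, as deposited (filled circles) and after the GC correction (open squares), with MT for mitochondrial DNA. The X chromosome is the lowest after the correction (-0.44) and mitochondrial DNA the highest (1.19), while chromosome 13 moves from -0.58 to 0.04.

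Against PC3, 16210 genes were tested and 7821 were called (48.2%), 4581 higher in DU145 (28.3%) and 3240 lower (20%). The DU145 libraries are the same in both comparisons, so these values are given side by side and not as independent evidence. Of the 12 genes with the largest rise over BPH-1, 10 were also higher in DU145 than in PC3. UCHL1 was at 0.243 ± 0.0910 FPKM in PC3 (log2 fold change of DU145 against PC3 7.25, limma adjusted p = 2.92e-08), and ANKRD1 at 0.551 ± 0.126 FPKM (7.15, limma adjusted p = 9.49e-08). KRT7 was at 60.4 ± 9.401 FPKM in PC3, between the other lines (1.82, limma adjusted p = 7.34e-05). VIM and COL6A2 were lower in DU145 than in PC3, at 121 ± 20.2 and 204 ± 7.21 FPKM there. Of the 12 largest falls, 6 were lower in DU145 than in PC3, among them MAL2 (115 ± 51.4 FPKM in PC3), IFITM3 (34.6 ± 8.52), EPCAM (9.10 ± 1.81) and SERPINB5 (11.9 ± 4.07). SPARC was as low in PC3 (0.202 ± 0.0778 FPKM) and not called (0.08, limma adjusted p = 0.286), and KRT14, KRT17, KRT5, KRT6A and IL1A had too few reads in both PCa lines to be tested.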

How the data were processed

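RNA was extracted with TRIzol and sequenced. The authors deposited 1 table of 58302 genes in 12 libraries of 3 cell lines, of which the 8 DU145 and BPH-1 libraries were used, and PC3 for the last comparison. The deposited values are FPKM, a unit taken from the values and the study's methods because the header names none. The submitters' processing notes name CASAVA 1.8, HISAT2 2.1.0 and edgeR with GRCh38, without roles, and whether counting used strand is not given in the sources used here. Reads of antisense, overlapping and near-identical genes cannot be told apart.

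Reads were recovered from the steps of FPKM values and GENCODE 29 exon lengths, with the length of a gene taken as the sum of its distinct exons. Of low values, 96.5% to 97.0% came out whole within 0.02, against 56.8% to 63.0% with overlapping exons merged. Depth was 13416343 to 16309559 reads. No pair of replicates agreed within sampling noise (chi-square of 23.5 to 220 per gene with at least 20 reads). A gene was tested if 4 of the 8 libraries each held 10 or more reads of it, scaled to a library of median depth, and all together 15, and the test was run with limma 3.58.1 (R 4.3.3) on log2(FPKM + 1), with a trend of the variance on level and Benjamini-Hochberg adjustment at 0.05. Tables were handled with Python 3.11.15, pandas 2.3.3 and numpy 2.4.6 and drawn with matplotlib 3.10.9. For the GC correction a natural spline with 5 degrees of freedom was fitted in each library over genes with at least 50 reads and divided out. An earlier form of it left a trend and was replaced after its result was seen, and the form used left the small slopes given above. On data simulated with a fixed dispersion of 0.02 in every library, 98% of 200 changed genes were recovered among 17076 genes, with 11 unchanged genes called. With the same GC trend simulated in each DU145 library, the test made 1338 calls among 17106 genes, of which 1149 were unchanged genes. After the GC correction 8 unchanged genes were called (17092 genes). The simulated DU145 libraries did not differ among themselves along GC content as the real ones do, so error rates for the real data were not tested.

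Members and lists were chosen with earlier results of these data known. Named genes are the 12 largest rises and falls among well-measured protein-coding genes, up to 3 rises and falls of each list with its defining member, the 6 of highest level in each set of genes expressed in DU145 or BPH-1 and close to absent from the other, and the 4 largest in each direction that depend on the GC correction. Other genes were named after their values were seen, and some genes are not reported here. Replicate numbers did not pair the samples (r from -0.0921 to -0.0650 between the deviations of same-numbered libraries). Other filters, pseudocounts, scalings, fits and sets of libraries were tried.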

Additional observations from a re-analysis of the deposited data

Results flagged for a closer look

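In 363 groups of 4 libraries, 19 had 1 library whose distance from its nearest neighbour relative to the range of the group was past Dixon's 95% critical value for 4 samples, and chance alone gives about 1 in 20. The part of chance in each was not tested.

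In BPH-1, replicate 2 was the high library in 5 groups. COL6A2 was at 0.784 FPKM there against 0.248 to 0.285 in the others, HEPHL1 at 50.6 against 11.04 to 13.4 and COL17A1 at 105 against 91.6 to 93.9. The same library held USP18 at 21.4 FPKM against 8.23 to 10.0, and ERAP2 at 16.5 against 8.05 to 8.98. BPH-1 replicate 4 was low for CDH2 (3.20 FPKM against 5.59 to 5.96), LIF (3.91 against 5.08 to 5.20) and MDM2 (6.66 against 7.12 to 7.20), and high for ALDOC (2.91 against 1.54 to 1.63). BPH-1 replicate 1 was high for PPP1CB (21.3 FPKM against 20.51 to 20.6), LDHA (93.3 against 73.6 to 76.1) and MT-ND2 (3517 against 2694 to 2734).

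In DU145, replicate 3 was high for KRT8 (32.5 FPKM against 14.7 to 16.6). DU145 replicate 2 was high for CXCL8 (185 FPKM against 46.6 to 70.02) and IL1B (0.200 against 0.0621 to 0.0828), and replicate 1 low for CDH2 (0.00965 against 0.0583 to 0.0671). DU145 replicate 4 was low for GADD45A (85.2 FPKM against 118 to 123) and ITGAM (0.272 against 0.482 to 0.494), and its summed FPKM over all genes was the highest of the line at 302456.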

How the results depend on the processing

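The counts of genes called, and of those higher or lower, stayed within 1.5 times of the values reported under every alternative tried. The count past the stricter rule moved from 4816 to 7641 with a pseudocount of 0.1 and to 8024 with limma's voom on the recovered reads. It moved to 3195 with the GC correction, with or without a replicate block, where overlap was judged on the deposited values. With 1 library left out, 9623 to 11466 genes were called, 4591 to 5498 higher and 5032 to 5968 lower, with 4419 to 5404 past the stricter rule. Of the 24 most changed genes, 19 to 20 were then tested against PC3 and 18 to 19 were called. With the replicate block 10152 genes were called, although same-numbered libraries did not deviate together, and with block and GC correction 10224. Without DU145 replicates 1 and 2, 9820 of 17909 genes were called, and LYZ and PTPRC became called lower (-3.30 and -1.23).

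Of 176 named genes that were called, 148 held their call and direction under each of the 24 alternatives in which they were tested. Not every gene was tested under each. Of 189 named genes with a test, 129 were tested when 10 reads were asked of every library. With a mean FPKM of at least 1, 175 were tested. Genes near 0 in DU145, such as KRT14 and KRT5, had no test under the first of these filters. With the GC correction, alone or with the block, the sign turned for CTNNB1 (0.54), ITGB1 (1.03), CCNG1 (0.44), CDK1 (0.25), HSD17B4 (0.85), TEX15 (0.061), UQCRC2 (0.39) and MT-ND6 (0.24), and without DU145 replicates 1 and 3 for ITGB1 (1.16). The cause was not tested. Depth limits genes under the filter, for which no difference was detectable.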

Other observations

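By gene type, 727 antisense genes were tested, 375 higher in DU145 and 115 lower, and 372 and 110 after the GC correction. Of 614 lincRNA genes, 274 were higher and 160 lower, and 279 and 141 after the correction. Of 961 processed pseudogenes 216 were higher and 296 lower, and the balance turned to 264 and 221 after it. The share called was 67.4% of antisense genes, 70.7% of lincRNA genes and 53.3% of processed pseudogenes. Over all genes tested 62.6% were called, 30.3% higher and 32.3% lower. Reads of these genes and of their overlapping or parent genes cannot be told apart here.

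Some genes that were nearly absent from DU145 were not equally so in its libraries. KRT14 stood at 0.136%, 0.218%, 0.0110% and 0% of its BPH-1 mean in DU145 replicates 1 to 4, KRT5 at 0.233%, 0.339%, 0.0163% and 0%, and IL1A at 0.336%, 0.401%, 0% and 0%. The higher values of these genes were in replicates 1 and 2, which also held LYZ and PTPRC. Among other large falls, KRT17, KRT6A and EPCAM were also higher in replicates 1 and 2 than in 3 and 4. MAL2, IFITM3, S100A14 and SERPINB5 were not, with IFITM3 at 0.408%, 0.541%, 0.886% and 0.723%, and SPARC differed little between the replicates.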
